A study of Anguilla anguilla with 24 samples.

Results

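The haemoglobin and rhag transcripts of the European eel (Anguilla anguilla) were followed in liver and brain as a readout of the blood held by each tissue. Members were the contigs of the deposited count table whose label, without its prefix and copy number, began with HBA or HBB or was rhag. The rule found 13 of 50640 contigs. They were 2 contigs of HBAA (anodic alpha globin), 2 of HBAC (cathodic alpha globin), 4 of HBBA (anodic beta globin), 3 of HBBC (cathodic beta globin), 1 of rhag and 1 of HBAP1. A contig is an assembled transcript sequence, and HBAA.1.2 is copy 1 of 2 contigs with that label. HBAP1 has the letters of the rule but is the protein entry name of a heat shock protein-associated protein, not of a globin, so it was counted as a member and described apart from the 11 globin contigs.

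The series asks how transcription in the liver and brain of eels responds to gold nanoparticles taken up with food. There were 12 eels. In the labels 6 of them (eels 7 to 12) belong to the exposed level, NP1, and 6 (eels 1 to 6) to the control level, NP0. The design text of the series gives 21 days of gold nanoparticles for the exposed eels. Each eel gave a brain and a liver library, so each tissue had 6 control and 6 gold-fed libraries, 4 groups in all. The age, sex and strain of the eels, the particle size and the dose were not given in the sources used here, nor how the eels were housed. The p-values measure the spread from eel to eel. The main fits across tissues did not pair the brain and liver libraries of an eel. A difference in housing between the exposure groups, if there was one, could not be told apart from exposure.

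Haemoglobin of the eel comes in an anodic and a cathodic form, named for their movement in an electric field, and each is built of alpha and beta chains. The anodic form loses oxygen affinity strongly in acid, which is the Bohr and Root effect that serves oxygen secretion into the swim bladder, while the cathodic form keeps a high oxygen affinity and shows a reverse Bohr effect. Fish erythrocytes keep their nucleus and carry globin transcripts in the circulation, so globin reads in an unperfused organ can come from blood in its vessels. The gene rhag encodes the Rh-associated glycoprotein, a channel for ammonia and carbon dioxide in the erythrocyte membrane. In bulk tissue fewer erythrocytes and less globin RNA per erythrocyte cannot be told apart.

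Brain libraries held 66.0 to 85.3 M reads (M, mega) in control eels and 79.3 to 116 M in gold-fed eels, and liver libraries 59.4 to 89.8 M and 50.3 to 87.6 M. Levels are CPM, a contig's counts scaled by all counted reads of its library, and fold changes come from edgeR with TMM scaling, which sets libraries to a common level over most contigs. Contig lengths are not in the files used here, so levels are compared between libraries and not between contigs. Tissue labels were checked with marker lists. Summed neuron markers in the 12 livers were 0.254 to 0.404% of their mean in control brain. Summed hepatocyte markers in the brains were 0.277 to 0.613% of their mean in control liver, apart from 2.12% in the brain of control eel 3. The gold comparison in brain is therefore also given without eel 3.

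All 11 globin contigs together made up a small part of each library. Their share was 0.0557 to 0.143% of counted reads in control brains (median 0.0926%) and 0.0425 to 0.171% in gold-fed brains (median 0.0742%). Livers had 0.0924 to 0.370% in controls (median 0.155%) and 0.0415 to 0.260% after gold (median 0.172%). The ranges of control and gold-fed eels overlapped in both tissues, and the lowest and the highest liver of the series were those of gold-fed eel 11 and control eel 6. By median the groups ranked gold-fed brain, control brain, control liver and gold-fed liver, and the ranges of neighbours in that order overlapped.

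Anodic alpha globin, HBAA, had 138 CPM in the lowest control brain (eel 5), a median of 222 and 401 CPM in the highest (eel 6), against 107 (eel 10), 193 and 474 CPM (eel 7) in gold-fed brains. Control livers had 218 (eel 2), 362 and 1083 CPM (eel 6), and gold-fed livers 104 (eel 11), 438 and 619 CPM (eel 12). Within each tissue the exposure groups overlapped, and the spread among eels of a group was 2.90-fold in control brain and 5.97-fold in gold-fed liver.

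Cathodic alpha globin, HBAC, the partner chain of the high-affinity haemoglobin, had 129 (eel 5), 195 and 337 CPM (eel 1) in control brains and 97.7 (eel 10), 167 and 379 CPM (eel 7) in gold-fed brains. Its livers had 210 (eel 2), 358 and 727 CPM (eel 6) in controls and 87.1 (eel 11), 384 and 627 CPM (eel 12) in gold-fed eels. The same eels stood at the ends of the range as for HBAA, except that eel 1 and not eel 6 was the highest control brain.

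The beta chains followed the same eels. Anodic HBBA had 186, 317 and 508 CPM (lowest, median and highest) in control brains, and 144, 257 and 567.7 CPM in gold-fed brains. In livers it had 318, 516 and 1331 CPM in controls and 152, 575 and 855 CPM in gold-fed eels. Cathodic HBBC had 104, 158 and 246 CPM in the brains of control eels and 75.9, 125 and 291 CPM in those of gold-fed eels. Its livers had 178, 312 and 560 CPM without gold and 72.3, 306 and 494 CPM with it. For both beta labels the lowest libraries were eels 5, 10, 2 and 11 in these groups, and the brain of eel 7 stood above every other gold-fed brain.

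The rhag contig had 3.99 (eel 4), 6.39 and 10.2 CPM (eel 3) in control brains and 3.57 (eel 10), 5.52 and 9.17 CPM (eel 7) in gold-fed brains. Control livers had 9.13 (eel 2), 11.2 and 41.6 CPM (eel 1), and gold-fed livers 3.86 (eel 11), 9.64 and 21.2 CPM (eel 12). The liver of control eel 1 stood apart from the other 5 control livers, which lay between 9.13 and 14.6 CPM.

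**Figure D1:**
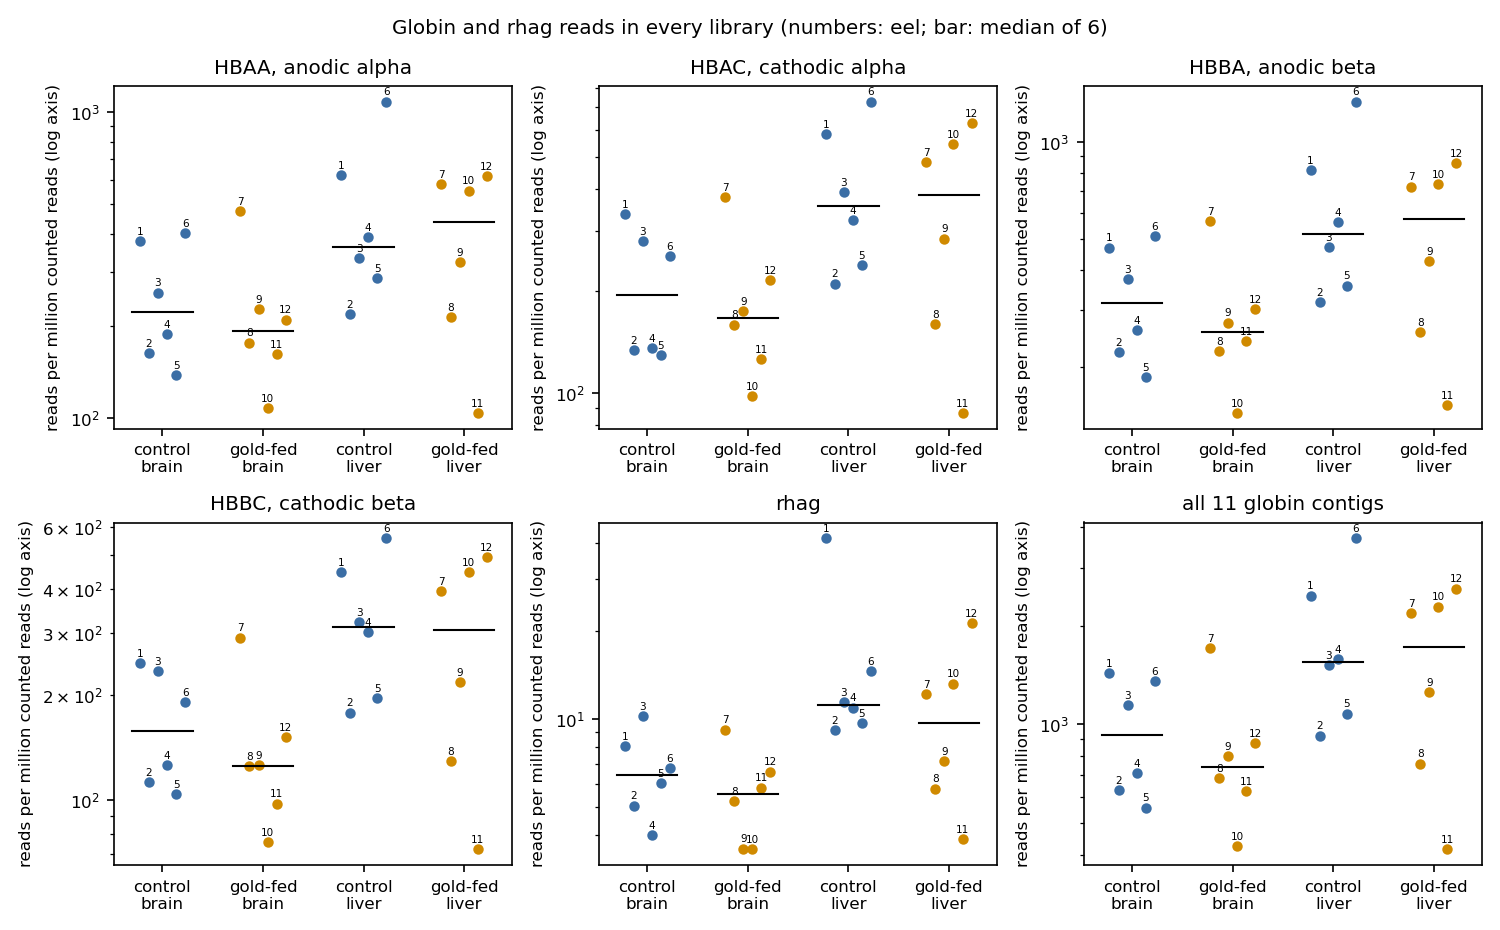
CPM (log axis) of each globin label, of rhag and of all 11 globin contigs in the 24 libraries, each point numbered by its eel, with the median of 6 eels as a bar. Control and gold-fed groups overlap within each tissue, and the liver of eel 1 has the highest rhag at 41.6 CPM.

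Liver held more of every member than brain, relative to most other transcripts of the tissue. In control eels 13 of 13 members were higher in liver with edgeR, where 75.1% of 49741 contigs passed in either direction and 34.9% were higher in liver. Globin log2 fold changes ran from 3.03 (HBBA.2.4, SE 0.41, edgeR adjusted p 1.10e-05) to 3.52 (HBAA.1.2, SE 0.46, adjusted p 7.39e-06). The cathodic contigs HBAC.1.2 and HBBC.2.3 lay within that range at 3.15 and 3.10, and rhag had 3.44 (SE 0.41, adjusted p 2.93e-06). In gold-fed eels 13 of 13 passed again, with a background of 73.0% in either direction and 33.3% higher in liver. There the globin log2 fold changes were 2.59 (HBBA.2.4, SE 0.42) to 3.88 (HBBC.3.3, SE 0.48), and that of rhag was 2.87 (SE 0.38, edgeR adjusted p 1.10e-05). These fits had no term for the eel, although each eel gave both tissues. With eel as a block 13 of 13 passed in control and in gold-fed eels. The globin log2 fold changes were then 2.90 to 3.47 and 2.53 to 3.66.

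The size of the tissue difference depended on the scaling, because the median of all contigs moved from -0.11 with TMM to -2.26 with library totals alone in control eels, and from -0.12 to -2.13 in gold-fed eels. With library totals the globin log2 fold changes were 0.84 to 1.32 in control eels, where 12 of 13 members passed against 10.9% of contigs higher in liver. In gold-fed eels they were 0.61 to 1.91, and 8 of 13 passed against 11.4%. The contigs lost there were the leading copies HBAA.2.2 (adjusted p 0.121), HBAC.1.2 (0.0726), HBBA.2.4 (0.174) and HBBC.2.3 (0.0916), with HBAP1 (0.362). For rhag the value was 1.28 in control eels (edgeR adjusted p 0.00598) and 0.90 in gold-fed eels (0.0401). The members stood above the median contig under both scalings.

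Taken per eel as a plain share of reads, liver exceeded brain in 11 of 12 eels for all globins together. The ratio of liver to brain was 1.73, 1.46, 1.33, 2.23, 1.94 and 2.73 in control eels 1 to 6. In gold-fed eels 7 to 12 it was 1.28, 1.11, 1.56, 5.38, 0.664 and 2.96. The exposed eels held both the widest gap, in eel 10, and the only reversed pair, in eel 11. The median ratio was 1.53 for HBAA, 1.68 for HBAC, 1.65 for HBBA and 1.78 for HBBC. For rhag it was 1.90, with a range from 0.665 in eel 11 to 5.15 in eel 1, and liver was again higher in 11 of 12 eels.

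**Figure D2:**
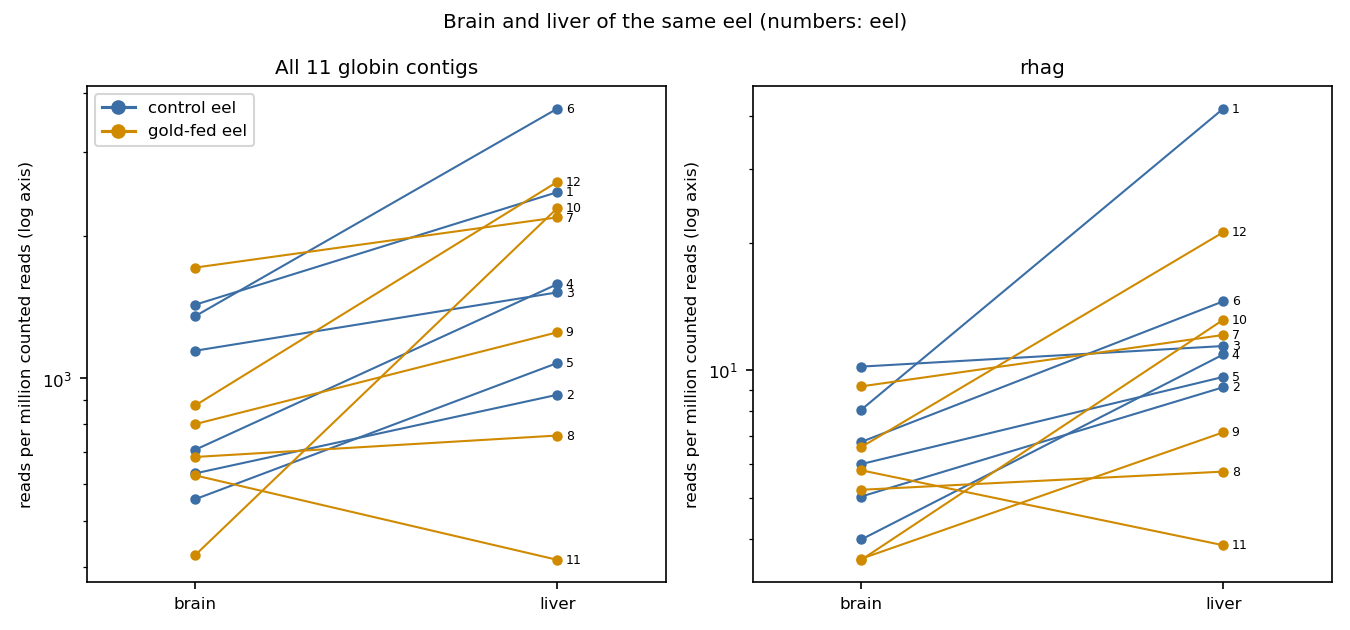
CPM (log axis) of all globin contigs (left) and rhag (right) in brain and liver, with a line joining the libraries of each numbered eel. Lines climb from brain to liver in 11 of 12 eels in both panels, and eel 11 falls.

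Eels rich in globin in 1 tissue were only partly so in the other, and no relation between the tissues passed. Over the 12 eels the level of HBAA in liver (log2 of CPM + 0.5, TMM scale) correlated with that in brain with Pearson's r 0.588 (permutation p 0.0444, 0.122 after Benjamini-Hochberg adjustment over 6 labels) and Spearman's rho 0.671 (permutation p 0.0199, adjusted 0.0819). Without eels 6 and 11, the farthest from the median on the liver axis, r was 0.509 (permutation p 0.136). Within the 6 control eels r was 0.881 (exact permutation p 0.00694) and within the 6 gold-fed eels 0.333 (exact permutation p 0.471). The other globin labels gave r of 0.523 to 0.565 and rhag 0.396, and none of the 6 labels passed after adjustment. The difference in r between control and gold-fed eels was not tested.

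No globin and no rhag contig passed for gold exposure in liver. With edgeR 0 of 13 members did, against 0.0% of 41793 contigs, and DESeq2 and limma-voom also called 0 of 13. At an unadjusted p below 0.05 were 0 of 11 globin contigs, beside 8.4% of contigs. All 11 globin log2 fold changes were negative, from -0.65 (HBAC.2.2, SE 0.42, edgeR adjusted p 0.705) to -0.29 (HBAC.1.2, SE 0.45, adjusted p 0.895). Their median was -0.39 beside 0.02 over all contigs, of which 47.9% were negative. The rhag value was -0.73 (SE 0.45, edgeR adjusted p 0.695) and -0.20 without eel 1. The globin contigs share the same 12 libraries, so their sign is not 11 separate observations. Without control eel 6 the globin median was -0.01 and 3 globin contigs turned positive, namely HBAA.2.2 (0.07), HBBA.1.4 (0.0038) and HBBA.3.4 (0.02). The median was also smaller without gold-fed eels 8 (-0.24) and 11 (-0.19), with all 11 negative, and without each of the other eels it was -0.35 to -0.54.

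In brain too, 0 of 13 members passed with edgeR, where 1 of 49830 contigs did (0.00201%), and DESeq2 and limma-voom called 0 of 13. At an unadjusted p below 0.05 were 2 of 11 globin contigs, beside 7.75% of contigs. The globin log2 fold changes were again negative in 11 of 11, with a median of -0.38, beside 50.0% negative over all contigs. They ran from -0.87 for HBAC.2.2 (SE 0.37, unadjusted p 0.0340, edgeR adjusted p 0.626) and -0.82 for HBBC.3.3 (SE 0.31, unadjusted p 0.0214, adjusted p 0.613) to -0.05 for HBBA.2.4 (SE 0.33). HBAC.2.2 had 2.57 to 9.49 CPM in control and 1.49 to 5.51 CPM in gold-fed brains, and HBBC.3.3 had 5.32 to 13.7 and 2.48 to 7.84 CPM, so the groups overlapped for both. The leading copies had -0.09 (HBAA.2.2), -0.09 (HBAC.1.2) and -0.08 (HBBC.2.3), and each turned positive without certain single eels. The globin median moved both ways with single eels. It was -0.23 without control eel 1 and -0.25 without gold-fed eel 10, each with 4 contigs positive. Without gold-fed eel 7, whose brain had the most globin reads, it was -0.69, with all 11 negative. There 7 of 11 had an unadjusted edgeR p below 0.05, beside 7.31% of contigs. After adjustment 0 passed (lowest edgeR adjusted p 0.671). The globin contigs share the same libraries, so the 7 are not separate observations. Without control eel 3, whose brain held the hepatocyte markers, the globin median was -0.35, with 3 contigs positive. Of the 11 globin contigs 1 was then at an unadjusted edgeR p below 0.05, beside 7.45% of contigs. For rhag the value was -0.21 (SE 0.27, edgeR adjusted p 0.868), with -0.04 without eel 3 and -0.40 without eel 7.

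No difference of the gold response between the tissues was detectable. In the interaction of tissue and exposure 0 of 13 members passed with edgeR, beside 0.00595% of 50455 contigs. Globin differences (liver response minus brain response, log2) ran from -0.42 to 0.40 with a median of -0.08. The sign of that median depended on single eels and on the scaling, with 0.25 without eel 6 (8 of 11 positive), -0.35 without eel 10 (10 of 11 negative) and 0.13 with library totals alone. The difference of rhag was -0.56 (SE 0.54, edgeR adjusted p 0.941). This fit had no term for the eel. With eel as a block the rhag difference was -0.47 (SE 0.42, edgeR adjusted p 0.813), and again 0 of 13 members passed.

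**Figure D3:**
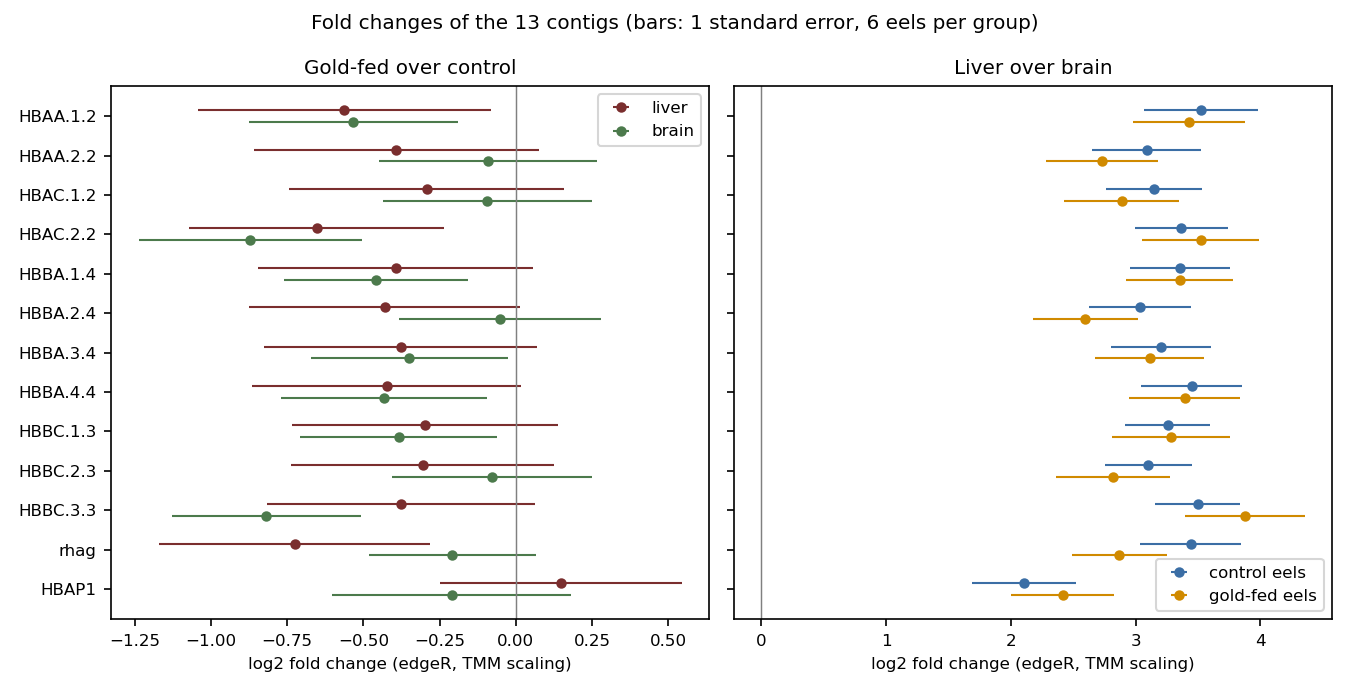
Log2 fold changes of the 13 member contigs from edgeR with TMM scaling, gold-fed over control in each tissue (left) and liver over brain in each exposure group (right), with bars of 1 standard error and 6 eels per group. In the left panel all 11 globin contigs lie below 0 in both tissues, and none passed after adjustment. In the right panel all 13 members lie above 0.

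The balance of the cathodic and anodic forms was followed as the log2 ratio of their reads within a library, which needs no scaling between libraries. Since contig lengths are not known, its level says nothing of which form was the more abundant, and only its differences between libraries are read. For the alpha chains (HBAC over HBAA) the mean was -0.26 ± 0.28 (SD, n = 6) in control and -0.22 ± 0.17 in gold-fed brains, and -0.17 ± 0.27 and -0.19 ± 0.16 in livers. Gold-fed and control eels differed by -0.02 (SE 0.13) in liver (exact permutation p 0.905) and 0.04 (SE 0.13) in brain (exact permutation p 0.762), which was 0.12 without eel 3 (exact permutation p 0.346). Between tissues of the same eel the alpha ratio was 0.06 higher in liver (SE 0.04, 9 of 12 eels, exact sign-flip permutation p 0.193, 0.580 after adjustment over 3 tests). It was 0.11 with the leading contig of each label alone (10 of 12 eels, exact permutation p 0.0493, adjusted 0.148) and 0.09 without eel 8 (exact permutation p 0.0303, adjusted 0.0908).

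For the beta chains (HBBC over HBBA) the means were -0.98 ± 0.25 in control and -1.02 ± 0.16 in gold-fed brains, and -0.88 ± 0.22 and -0.90 ± 0.13 in livers. The ratio was 0.11 higher in liver than in brain of the same eel (SE 0.03, higher in 10 of 12 eels), with an exact sign-flip permutation p of 0.00781 and 0.0234 after adjustment over 3 tests. Exposure groups differed by -0.02 in liver (exact permutation p 0.829) and -0.04 in brain (exact permutation p 0.749), the latter 0.02 without eel 3 (exact permutation p 0.857). The beta ratio was added after the alpha ratio had been seen.

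Individual eels differed widely in this balance, and both ends of the range were control eels. Control eel 3 had the highest alpha ratio in both tissues, 0.13 in brain and 0.24 in liver, and control eel 6 the lowest, -0.66 and -0.57. Their beta ratios stood at the same ends, -0.68 and -0.55 in eel 3 against -1.42 and -1.25 in eel 6. The remaining eels lay between these in each tissue and chain. Over the 12 livers alpha and beta ratios had r 0.905 and rho 0.860 (permutation p 2.30e-04 and 5.50e-04, adjusted 0.00252 and 0.00132 over 12 relations), and r 0.697 (permutation p 0.0244) without eels 3 and 6. Over the 12 brains r was 0.831 and rho 0.797 (permutation p 7.00e-04 and 0.00262, adjusted 0.00252 and 0.00524), but 0.580 (permutation p 0.0766) without those eels. In the control eels alone r was 0.961 in liver and 0.959 in brain (exact permutation p 0.00278 and 0.00139), and in the gold-fed eels 0.741 and 0.579 (exact permutation p 0.0986 and 0.247).

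The ratio also carried over between the tissues of an eel. Liver and brain alpha ratios had r 0.762 and rho 0.671 (permutation p 0.00413 and 0.0197, adjusted 0.00551 and 0.0242) and beta ratios r 0.848 and rho 0.601 (permutation p 9.60e-04 and 0.0426, adjusted 0.00252 and 0.0426). Without eels 3 and 6, the ends of the range, r was 0.382 (permutation p 0.275) and 0.559 (permutation p 0.0953) over 10 eels, so neither relation passed without them. Within control eels r was 0.870 for alpha and 0.955 for beta (exact permutation p 0.0292 and 0.0139), and within gold-fed eels 0.489 and 0.571 (exact permutation p 0.310 and 0.246).

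**Figure D4:**
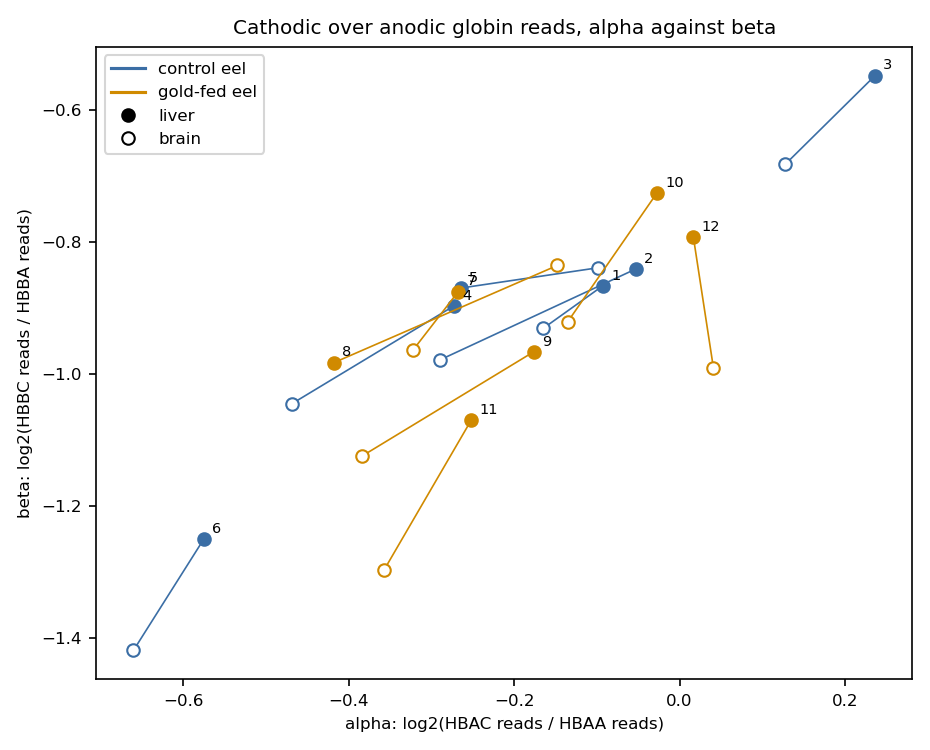
Log2 ratio of cathodic to anodic globin reads of the alpha chains (horizontal axis) and beta chains (vertical axis), with filled points for liver, open points for brain, and a line joining the tissues of each numbered eel. Control eels 3 and 6 lie at the upper and lower ends in both tissues, and control and gold-fed eels share the middle.

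The channel transcript rhag tracked the globins among eels. In liver its correlation with the 4 globin labels over 12 eels was r 0.776 (HBAA) to 0.833 (HBAC) and rho 0.888 to 0.923, with permutation p adjusted over 12 relations of at most 0.00649 and 0.00075. In brain r was 0.656 (HBAA) to 0.816 (HBBC), with adjusted permutation p of at most 0.0218, and rho 0.608 to 0.755, at most 0.0426. Leaving out the 2 eels farthest from the median of the globin gave r 0.767 to 0.788 in liver and 0.570 to 0.736 in brain. In brain the relation with HBAA (permutation p 0.0849) was no longer below 0.05 without eels 6 and 7. Within control livers r was 0.593 to 0.692, and within gold-fed livers 0.935 to 0.957, with exact permutation p of at least 0.0792 in the former and at most 0.00556 in the latter. Within brains r was 0.535 to 0.819 in control and 0.737 to 0.816 in gold-fed eels.

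Set against globin reads, rhag was alike in 3 of the groups. Control brains had 7.33 ± 2.28 rhag reads per 1000 globin reads, gold-fed brains 7.11 ± 1.84 and gold-fed livers 7.02 ± 1.57 (SD, n = 6). Control livers had 9.01 ± 4.35, with 16.9 in eel 1 and 3.94 in eel 6. On this measure the liver of eel 1 was the highest control liver. Dixon's criterion, an outlier test for small sets, did not flag it there (0.540, critical value 0.625 for 6 libraries). The median of control livers was 8.24, beside 6.81, 7.58 and 6.69 in control brains, gold-fed brains and gold-fed livers. The liver of eel 6, which had the most globin reads, had the fewest rhag reads per globin read of the 24 libraries.

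The copies of a globin label held different portions of its reads in liver and in brain. The sources used here do not say how reads that match several copies were counted. Reads may be split between copies, and the shares are uncertain in that respect. Tests of 9 contigs in 4 comparisons were added after the values had been seen, and p-values were adjusted over these 36 tests, of which 18 passed. The shares of a label's contigs add up to the whole, so a larger share of a beta contig requires smaller shares of others. The 18 passes are therefore not separate findings. Copy shares of other labels were not computed, so these counts have no background. Whether such differences are particular to the globins was not tested. In all 4 labels the leading contig held a smaller portion in liver. HBBA.2.4 held 64.2% ± 3.49 of HBBA reads in brain and 57.4% ± 2.66 in liver (SD, n = 12), lower in liver in all 12 eels (exact sign-flip permutation p 4.88e-04, adjusted 0.0176). HBBC.2.3 held 69.0% ± 3.80 and 63.6% ± 1.87 (exact permutation p 0.00488, adjusted 0.0224), higher in liver in 2 of 12 eels.

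The lesser copies were the larger in liver. HBAA.1.2 held 10.3% ± 1.87 of HBAA reads in brain and 14.2% ± 1.81 in liver, higher in 10 of 12 eels (exact permutation p 0.00195, adjusted 0.0176). HBAC.2.2 held 1.97% ± 0.679 and 2.58% ± 0.502 of HBAC reads, higher in 11 of 12 (exact permutation p 0.00342, adjusted 0.0205). HBBC.3.3 held 4.04% ± 0.989 and 5.95% ± 0.931 of HBBC reads, higher in 10 of 12 (exact permutation p 0.00244, adjusted 0.0176). HBBA.1.4, HBBA.3.4, HBBA.4.4 and HBBC.1.3 were likewise higher in liver, in 10, 10, 11 and 10 of 12 eels, with adjusted exact permutation p of at most 0.0224. The alpha labels have 2 contigs each, so HBAA.2.2 and HBAC.1.2 hold the rest and moved the opposite way.

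The same copies differed with exposure in brain. HBAA.1.2 held 10.2 to 13.7% of HBAA reads in control brains and 6.59 to 10.5% in gold-fed brains (means 11.5% and 9.19%, exact permutation p 0.00649, adjusted 0.0224). HBBC.3.3 held 4.27 to 5.57% and 2.53 to 4.36% (means 4.82% and 3.25%, exact permutation p 0.00649, adjusted 0.0224). The groups overlapped narrowly for both, and the highest gold-fed brain was that of eel 8 in each case. HBAC.2.2 held 2.43% ± 0.431 in control and 1.51% ± 0.565 in gold-fed brains (exact permutation p 0.0173, adjusted 0.0413).

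The leading copies were the larger in gold-fed brains. HBBC.2.3 held 66.3% ± 3.26 in control and 71.7% ± 1.84 in gold-fed brains (exact permutation p 0.0108, adjusted 0.0325), and HBBA.2.4 held 61.8% ± 2.49 and 66.5% ± 2.66 (exact permutation p 0.0152, adjusted 0.0390). HBBA.3.4, HBBA.4.4 and HBBC.1.3 were lower in gold-fed brains with adjusted exact permutation p of 0.0413, 0.0476 and 0.0390, and HBBA.1.4 did not pass (0.142). Without eel 1 the unadjusted exact permutation p of HBBA.4.4 was 0.0520, and in the other 7 contigs that passed it was at most 0.0455 without any single eel. Gold-fed brains were also sequenced deeper, at 96.6 ± 14.96 M against 77.8 ± 7.87 M counted reads, and the part of depth in these shares was not tested.

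In liver HBAC.2.2 alone passed for exposure, with 2.91% ± 0.375 in control and 2.26% ± 0.399 in gold-fed livers (exact permutation p 0.0195, adjusted 0.0413). The other 8 contigs had adjusted exact permutation p of 0.172 or more. The difference between the tissues in the effect of exposure was tested for the 9 contigs and passed for none, with adjusted exact permutation p from 0.0656 (HBBC.1.3) to 0.828. A brain difference that did not pass in liver is therefore not shown to be limited to brain.

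**Figure D5:**
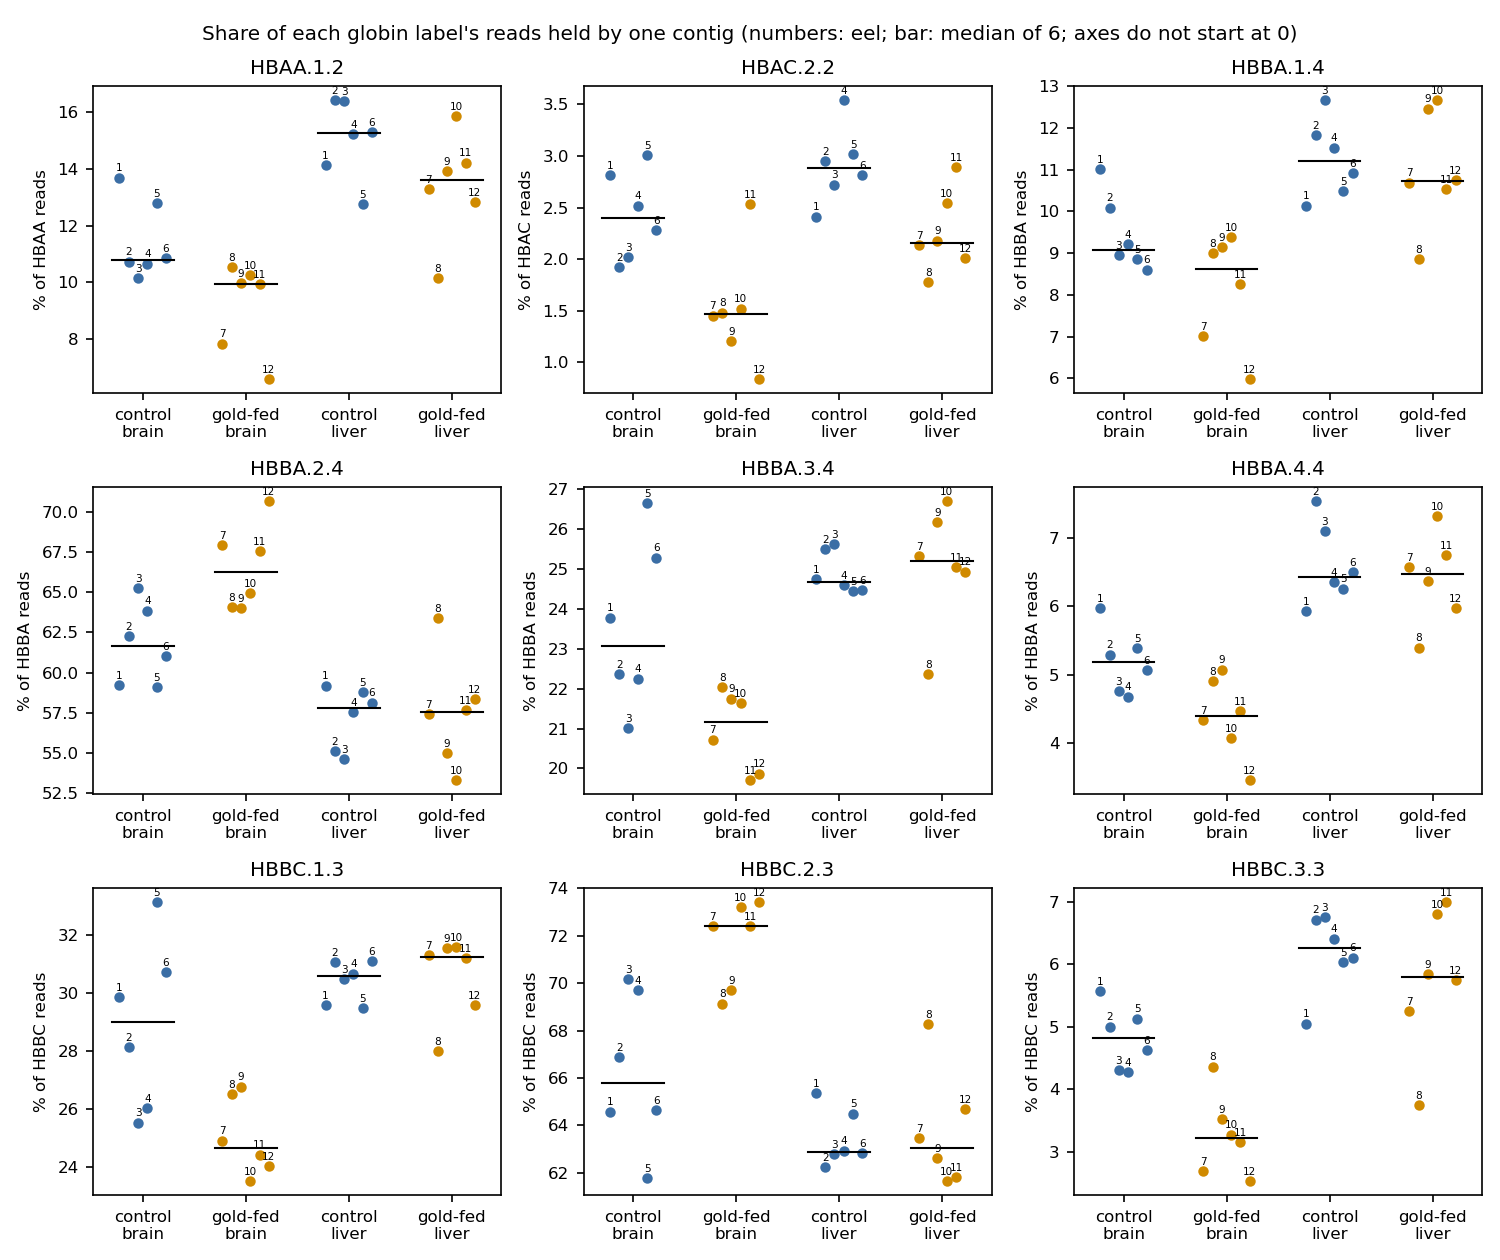
Share of the reads of a globin label held by each of 9 contigs (percent, axes not starting at 0) in every library, each point numbered by its eel, with the median of 6 eels as a bar. Leading copies HBBA.2.4 and HBBC.2.3 are on average highest in gold-fed brains, and the lesser copies HBAA.1.2, HBAC.2.2 and HBBC.3.3 lowest there.

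Contigs most like the leading globin contig were sought in each tissue over 12 libraries, from log2 of CPM + 0.5 after the group means were subtracted, as a description with no test. HBAA.2.2 was taken as the reference, because it had the highest mean CPM of the globin contigs. In brain the named contigs of highest Pearson's r among 43256 were ZFR (0.921), a zinc finger RNA-binding protein, and B3AT (0.919), the band 3 anion exchanger that moves bicarbonate across the erythrocyte membrane. After them came mhc1uka (0.865), CXA1.1.2 (0.850) and RS14.4.6 (0.845). In liver, among 26783 contigs, they were UBE2G1.1.2 (0.943), a ubiquitin-conjugating enzyme, tubb1 (0.894), a beta tubulin of blood cells in mammals, B3AT (0.884), fsd1l.2.4 (0.876) and HEM0.1.2 (0.872), the erythroid 5-aminolevulinate synthase that opens haem synthesis.

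With rhag as the reference the named contigs were different. They were cfap221 (0.910), sept12.2.3 (0.908), ZN652.2.3 (0.886), ttc31 (0.884) and crym (0.883) in brain, and arhgef4.6.8 (0.915), Zfp534.12.13 (0.880), mcrip1.1.3 (0.868), rtst6galnac (0.841) and dennd4c.1.2 (0.835) in liver. The r of rhag with HBAA.2.2 itself was 0.651 in brain and 0.770 in liver, and the liver values include eel 1.

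Transcripts of the haemoglobin pathway followed the liver and brain difference in part. Of 8 haem synthesis contigs (4 of 9 gene symbols matched), 6 were higher in liver in control and in gold-fed eels with edgeR and 0 lower, beside 34.9% and 33.3% of all contigs higher. The erythroid synthase contig HEM0.2.2 had 6.15 ± 0.943 CPM in control brain and 38.2 ± 5.75 CPM in control liver (log2 fold change 4.79, SE 0.16, edgeR adjusted p 6.35e-12). The housekeeping synthase contig alas1.1.4, 1 of 4 alas1 contigs among the 8, had 3.16 and 58.4 CPM (6.37, SE 0.17, adjusted p 1.40e-12). HEM0.2.2 did not follow the globin contig HBAA.2.2 among eels (r 0.11 in liver and -0.22 in brain). Its other copy, HEM0.1.2, did (0.872 and 0.826). The means of HEM0.1.2 were 12.5 CPM in control brain and 21.6 CPM in control liver, with TMM scaling within each tissue. Of 7 erythrocyte membrane contigs 5 were higher in liver, among them B3AT (2.98, SE 0.36, edgeR adjusted p 3.71e-06) at 7.69 ± 2.39 and 13.7 ± 6.41 CPM, and 2 were lower, the cytoskeletal epb41.2.3 (-5.52) and dmtn (-2.48). These 2 are expressed in neurons as well as in erythrocytes of mammals, and epb41.2.3 had 20.6 CPM in control brain and 0.102 CPM in control liver. The calls of both lists used TMM scaling. As summed CPM, without it, the membrane list averaged 90.75 in control brain and 23.2 in control liver. The haem synthesis list was higher in liver on that measure too, with 78.45 and 242.1 CPM.

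Other erythroid lists were mixed between the tissues. As background, 17381 contigs were higher and 19963 lower in liver, of 49741 tested with edgeR in control eels. In gold-fed eels these were 16551 and 19762 of 49776. Of 12 erythroid regulator contigs 2 were higher and 7 lower in liver, in control as in gold-fed eels (median log2 fold changes -0.62 and -0.88). Of 10 erythroid iron and enzyme contigs 5 were higher and 2 lower in control eels and 6 higher and 1 lower in gold-fed eels. Of 7 haemoglobin clearance contigs 5 were higher and 2 lower in both, and of 13 oxygen sensing contigs 11 were higher and 1 lower in both. These calls used TMM scaling. Summed CPM, which has no TMM scaling, averaged 375.9 in control brain and 187.2 in control liver for iron and enzymes. It was 407 and 342.1 for oxygen sensing, and 144.2 and 151.5 for clearance. A larger share of reads in liver is therefore not shown by the calls of these lists.

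The 2 contigs of the erythroid synthase parted in how they followed the globins among eels. HEM0.1.2 had r 0.872 with HBAA.2.2 in liver and 0.826 in brain, and HEM0.2.2 had 0.11 and -0.22. Of the membrane contigs 3 of 6 in liver and 3 of 7 in brain had r above 0.5, beside 5.09% and 7.81% of all other contigs. The shares were lower in the other lists. Haem synthesis had 1 of 7 in liver and 1 of 6 in brain, and erythroid regulators 2 of 6 and 2 of 11. Erythroid iron and enzymes had 2 of 7 and 1 of 8, haemoglobin clearance 0 of 5 and 0 of 6, and oxygen sensing 0 of 13 and 1 of 12. The 4 alas1 contigs had r of -0.17 to -0.09 in liver.

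In the gold comparisons 0 contigs of the haem synthesis, erythrocyte membrane, erythroid regulator, erythroid iron and enzyme, haemoglobin clearance and oxygen sensing lists passed with edgeR in either tissue. Of all contigs 0.0% passed in liver and 0.00201% in brain. Tested in liver were 7 of 8 haem synthesis, 6 of 7 membrane, 9 of 12 regulator and 9 of 10 iron and enzyme contigs. In brain 6 of 7 clearance contigs were tested, and elsewhere all. B3AT had log2 fold changes of -0.09 (SE 0.41) in liver and -0.16 (SE 0.31) in brain, and HEM0.2.2 had -0.04 (SE 0.17) and 0.06 (SE 0.16). The hypoxia factor contig hif1a.1.2 had 0.15 (SE 0.19) and 0.42 (SE 0.18, edgeR adjusted p 0.639). Medians of the haem synthesis list were -0.04 in liver and 0.07 in brain, and those of the membrane list -0.12 and -0.15, beside -0.39 and -0.38 for the globins and 0.02 and 0.00021 for all contigs.

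The globins of nerve and other tissues went the other way. Neuroglobin (NGB), a globin of neurons, had 27.7 ± 8.91 CPM in control brain and 0.176 ± 0.136 CPM in control liver (log2 fold change -5.14, SE 0.52, edgeR adjusted p 5.57e-07). Cytoglobin (cygb), found in fibroblast-like cells, had 12.4 ± 2.80 and 0.585 ± 0.280 CPM (-2.25, SE 0.28, edgeR adjusted p 5.19e-06). With adgb, all 3 such contigs were lower in liver in control and in gold-fed eels. Of all contigs 19963 of 49741 and 19762 of 49776 were lower there. For gold 0 passed, of 1 tested in liver and 3 in brain, beside 0.0% and 0.00201% of all contigs.

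Markers of other blood and vessel cells were set beside the globins. Of 11 leukocyte contigs, none at 0 throughout a group, 11 were lower in gold-fed livers and 11 higher in gold-fed brains by sign. With edgeR 0 passed in either. Of all contigs 47.9% were negative in liver and 50.0% in brain. The leukocyte contigs come from 5 gene symbols and share the same libraries, so their signs are not 11 separate observations. Their summed level was 52.1 to 148 CPM in livers of control eels and 35.1 to 78.6 CPM in those of gold-fed eels, and 134 to 359 and 93.2 to 498 CPM in brains. Their part in the globin values was not tested. Across livers these contigs had r of -0.54 to -0.16 with HBAA.2.2, and across brains 0.04 to 0.65. Endothelial markers summed to 161 ± 69.3 CPM in livers without gold and 174 ± 45.2 CPM with it, and to 158 ± 19.1 and 151 ± 12.0 CPM in brains, with 0 of 12 contigs passing. Between tissues the calls used TMM scaling. Of 12 endothelial contigs 10 were higher in liver in control eels and 11 in gold-fed eels, beside 34.9% and 33.3% of all contigs. The summed levels, which have no TMM scaling, were 158 CPM in control brain and 161 CPM in control liver. Greater vessel content of liver is therefore not shown by these calls, and the lists were not examined with library totals alone. Of the 11 leukocyte contigs 3 were higher and 0 lower in control livers with TMM scaling. As summed CPM the list went the other way, with means of 95.1 in control liver and 248 in control brain. In gold-fed livers 0 were higher and 4 lower, with 11 negative, and the mean sums were 50.2 CPM in liver and 331 CPM in brain. Of all contigs 19963 of 49741 were lower in liver in control eels and 19762 of 49776 in gold-fed eels. The part of these marker lists in the globin difference was not tested.

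HBAP1, the member that is no globin, was rare, with 8 to 49 reads per library. It had 0.372 ± 0.150 CPM in control and 0.316 ± 0.165 in gold-fed brains, and 0.363 ± 0.192 and 0.413 ± 0.178 in livers. Its log2 fold change with exposure was 0.15 (SE 0.40) in liver and -0.21 (SE 0.39) in brain. Liver against brain gave 2.10 (SE 0.42, edgeR adjusted p 3.95e-04) in control eels with TMM scaling but -0.04 (adjusted p 0.937) with library totals alone, and liver exceeded brain as a share of reads in 7 of 12 eels.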

How the data were processed

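RNA sequencing counts were analysed for 12 brains and 12 livers of 12 eels. The deposited table holds raw read counts per contig, whole numbers without normalization by the authors, and 0 of its columns belonged to no sample. The submitters' processing notes name BWA 0.7.12 and SAMtools 1.1. Assembly, annotation, counting rule and strandedness were not given in the sources used here. Per the labels' protocols, libraries were made with a TruSeq kit from total RNA.

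Counts were fitted over all contigs with edgeR 4.0.16 in R 4.3.3 (quasi-likelihood test, TMM factors, filterByExpr, 12 libraries per fit and 24 for the interaction, no covariates), two-sided, with p-values adjusted by Benjamini-Hochberg and called below 0.05. All 13 members passed the filter in each fit. Alternatives were DESeq2 1.42.0, limma-voom (limma 3.58.1), other scalings and filters, counts summed by label, and leaving out each eel. Ratios of label sums and copy shares were tested with exact permutation tests, and correlations with 100000 permutations, in Python 3.11.15 with scipy 1.17.1. The fits were tested on simulated counts. No libraries of a group were duplicates, with a chi-square per degree of freedom of at least 66.7.

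Liver and brain libraries with the same number came from the same eel, per the labels. Their deviations from the group means correlated with r of 0.398 to 0.611 over 24801 contigs, highest with the own brain for 12 of 12 livers.

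The members, the lists and the naming rule (all members, list members by smallest p or highest mean, the 5 named contigs most like a reference with at least 1 CPM) were chosen with earlier results of these data known. The beta ratio, the copy shares, the relations of the ratios and of rhag with the globins, the values per 1000 globin reads and the lists' correlations were added after the data were seen. The list contigs epb41.2.3, HEM0.2.2 and hif1a.1.2 were named after their values were seen. Of the 6 member labels 1, rhag, equals a symbol of the RefSeq gene table of the species. No sequence or coordinate was used.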

Additional observations from a re-analysis of the deposited data

Results flagged for a closer look

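Of 64 sets of 6 libraries tested with Dixon's criterion, whose 95% critical value is 0.625 for 6 samples, 5 held a library far from the others. The sets were the member contigs, the alpha and beta ratios and the rhag reads per 1000 globin reads, each by group. Chance flags about 1 in 20, and contigs of a library are not independent.

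In gold-fed brain the library of eel 7 stood above the others for 4 globin contigs, HBAA.2.2 at 436.8 CPM, HBBA.3.4 at 117.6 CPM, HBBC.1.3 at 72.52 CPM and HBBC.2.3 at 210.8 CPM. That brain had the most globin reads of the 12 brains, 0.171% of counted reads, while its rhag (9.17 CPM) was below that of control brain 3 (10.2 CPM).

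In control liver the library of eel 1 stood apart for rhag, at 41.58 CPM against 9.13 to 14.6 CPM in the other 5, which is 3.81 times the median of those. Its globin contigs were 1.17 to 1.91 times that median and none was the highest control liver. Of the 13 members only rhag and HBAP1 were above all other control livers there. Of the lists, 4 of 8 haem synthesis, 4 of 10 erythroid iron and enzyme, 4 of 12 endothelial, 1 of 7 erythrocyte membrane, 1 of 12 erythroid regulator and 1 of 11 leukocyte contigs were above all others there. Medians over the contigs of a list were 1.22, 1.06, 0.945, 1.01, 0.991 and 0.453 times the others, in that order. The haem synthesis contigs above all others were HEM0.2.2, alas1.1.4, alas1.2.4 and alas1.3.4. The share of all contigs that were highest in this liver was not computed, so the list counts have no background.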

How the results depend on the processing

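No member passed for exposure, or for the interaction of tissue and exposure, under any alternative. For liver against brain 13 of 13 passed under every alternative that was run per contig (6 of 6 with counts summed by label) except library totals alone. There 8 passed in gold-fed eels and 12 in control eels, where HBAP1 was -0.036. Eel as a replicate block changed no other call, with rhag at 3.26 and 2.77 in control and gold-fed eels and -0.47 for the interaction, where 1 contig of the table passed in place of 3. Over all contigs DESeq2 called 289 for gold in liver, 178 in brain and 136 for the interaction, the fit of 24 libraries called 229 in liver, and counts summed by label called 0 in brain. Without single eels these counts were 0 to 3 in liver (3 without eel 1), 1 to 4 in brain (4 without eel 10) and 0 to 6 for the interaction (6 without eel 10).

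Log2 fold changes that changed sign without single eels were, for gold in liver, HBAA.2.2 (-0.56 to 0.073), HBBA.1.4 (-0.57 to 0.0038), HBBA.3.4 (-0.54 to 0.022) and HBAP1 (-0.069 to 0.39), and in brain HBAA.2.2 (-0.46 to 0.083), HBAC.1.2 (-0.41 to 0.086), HBBA.2.4 (-0.37 to 0.090) and HBBC.2.3 (-0.41 to 0.065). The gold difference of the alpha ratio was -0.10 to 0.064 in liver and -0.039 to 0.12 in brain, and that of the beta ratio -0.10 to 0.043 and -0.13 to 0.020. The liver against brain r of HBAP1 was -0.024 without 2 eels. The causes were not tested. HBAP1, with 8 to 49 reads per library, has the least depth of the members.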
